A study of Mus musculus with 8 samples.

Results

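The genes described here are 8 enzymes of cytosolic and mitochondrial acetyl-CoA supply and of fatty acid synthesis, namely Acss1, Acss2, Acly, Acaca, Acacb, Fasn, Scd1 and Scd2. They were taken by gene symbol from the 24281 named loci of the female table and the 23944 named loci of the male table. A gene listed at several loci was to be represented by the locus chosen by the highest mean FPKM, a transcript level given per length of transcript and per fragments sequenced. Each of the 8 genes stood at 1 locus in each table, so that this choice decided nothing. All 8 passed the minimum mean of 1 FPKM over the 4 female libraries, and 7 of the 8 passed it in males, where Scd1 did not. Of those that passed, Acss1, Acacb and Scd1 in females and Acacb in males had a control mean under 1 FPKM and passed through the Snf5 CKO libraries.

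RNA-Seq was carried out on E15.5 germ cells sorted by the Oct4-EGFP transgene from female and male mouse embryos, which gave 8 libraries, 2 per genotype in either sex. Snf5, whose gene symbol is Smarcb1, belongs to the core of SWI/SNF, a complex that moves nucleosomes at the expense of ATP. The Snf5 CKO embryos were Snf5fx/Δ with TNAP-Cre, whereas the controls mixed Snf5fx/+ embryos, with or without TNAP-Cre, and Snf5fx/Δ embryos without it, so that some controls carried 1 null allele or the Cre. TNAP-Cre is a Cre knocked into Alpl that acts mostly in post-migratory primordial germ cells and leaves some germ cells unrecombined. All embryos carried Oct4-EGFP, the labels give the strain as C57BL/6 while the methods describe a mixed background, and cells of several embryos were pooled for most libraries. With pooled cells, fewer cells with a transcript and fewer transcripts per cell cannot be told apart.

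Acetyl-CoA is the carbon donor of fatty acid synthesis and of histone acetylation. In the cytosol and nucleus it is made from acetate by ACSS2 and from citrate by ATP-citrate lyase, the product of Acly, while ACSS1 makes it from acetate in mitochondria. Acetyl-CoA carboxylase then forms malonyl-CoA, the ACC1 isoform (Acaca) for fatty acid synthesis in the cytosol and the ACC2 isoform (Acacb) at the mitochondrial surface, where malonyl-CoA restrains the import of fatty acids for oxidation. Fatty acid synthase (Fasn) builds palmitate from both, and the stearoyl-CoA desaturases (Scd1 and Scd2) introduce the first double bond into saturated acyl chains.

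The targeted gene was low in the Snf5 CKO libraries of both sexes. In females, Smarcb1 was at 23.4 and 22.3 FPKM in controls against 4.24 and 2.47 FPKM in Snf5 CKO, and in males at 141 and 167 FPKM against 8.73 and 10.1 FPKM. The groups did not overlap in either sex. The correlation of log2(FPKM + 1) over tested loci ranged from 0.966 to 0.974 for libraries of the same genotype and sex and from 0.777 to 0.849 for control against Snf5 CKO. The 6 germ cell markers Ddx4, Dazl, Mael, Dppa3, Pou5f1 and Tdrd5 summed to 1877 and 1907 FPKM in female controls and to 2805 and 2955 FPKM in female Snf5 CKO, and to 4752 and 4746 against 4364 and 4849 FPKM in males. The makeup of this sum differed between genotypes. All libraries were of E15.5, so rose and fell here and below name differences from control, not changes over time. The paper places the Snf5 CKO profiles of both sexes among those of normal germ cells younger than E15.5. In females Dppa3 rose from 41.2 and 61.3 to 1406 and 1633 FPKM, Pou5f1, whose promoter drives the sorting transgene, rose from 8.63 and 16.7 to 295 and 333 FPKM, and Mael fell from 670 and 631 to 203 and 140 FPKM. In males Mael fell from 992 and 1005 to 107 and 148 FPKM and Tdrd5 from 345 and 216 to 63.2 and 48.4 FPKM, and the other 4 were not called.

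Markers of gonadal somatic cells also moved with genotype. The 6 Sertoli markers (Sox9, Amh, Dhh, Cst9, Ptgds and Aard) summed to 136 and 107 FPKM in male controls and to 601 and 907 FPKM in male Snf5 CKO, and all 6 were called higher. The 6 Leydig markers (Star, Cyp11a1, Cyp17a1, Hsd3b1, Insl3 and Nr5a1) summed to 89.4 and 60.3 FPKM in male controls and to 29.6 and 27.2 FPKM in male Snf5 CKO, with 3 called lower and 1 higher, and the 6 stromal markers to 21.2 and 10.2 against 4.25 and 2.46 FPKM, with 3 of 4 tested called lower. In females, the 6 pre-granulosa markers (Foxl2, Fst, Irx3, Wnt4, Rspo1 and Bmp2) summed to 8.62 and 11.1 FPKM in controls and to 24.1 and 21.4 FPKM in Snf5 CKO, with 3 called higher and 1 lower. The 6 markers of adipocytes, a lipid-storing cell type (Adipoq, Plin1, Fabp4, Cidec, Lep and Pparg), summed to 4.04 and 3.44 FPKM in male controls and to 0.173 and 0.274 FPKM in male Snf5 CKO. Of these, Adipoq was at 2.003 and 1.87 against 0 and 0.0485 FPKM, Cidec at 0.756 and 0.910 against 0 and 0 FPKM and Fabp4 at 0.787 and 0.498 against 0.0849 and 0 FPKM, while Lep was listed at 0 in all male libraries and none was tested. Plin1, at 0.304 and 0.159 against 0.0211 and 0.189 FPKM, overlapped between the male groups. So did Pparg, at 0.187 and 0 against 0.0670 and 0.0365 FPKM. In females the sum was 32.5 and 27.3 FPKM in controls and 6.55 and 6.42 FPKM in Snf5 CKO, of which Pparg held 32.3 and 27.2 against 6.31 and 6.15 FPKM, and Fabp4 and Lep were listed at 0 in all libraries. The part of these cells, of the change among germ cell markers and of the younger stage described in the paper in the results below was not tested.

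The comparison asked which of the 8 genes differed between Snf5 CKO and control germ cells of the same sex. Each table was fitted alone with limma on log2(FPKM + 1), and a gene was called where its log2 fold change reached 1 in size and its p, adjusted by Benjamini-Hochberg over all loci tested (11642 in females and 12368 in males), was under 0.05. In females 2 of the 8 genes were called lower, Acss2 and Acaca, against 21.8% of all tested loci, and 4 were called higher, Acacb, Fasn, Scd1 and Scd2, against 17.2%. In males 3 of the 7 tested genes were called lower, Acss2, Acly and Acaca, against 17.5% of all tested loci, and 1 was called higher, Acacb, against 14.3%. The groups did not overlap for 7 of the 8 genes in females, against 81.5% of all tested loci, and for 5 of the 7 tested genes in males, against 74.4%. Acss1, Acacb and Scd1 in females and Acacb in males passed the minimum mean only through the Snf5 CKO libraries, so these counts depend partly on the filter. The median log2 fold change over all tested loci was -0.14 in females and -0.07 in males. A median-of-ratios rescaling of each table moved this median by 0.16 in females and by 0.15 in males, and a common sum over named loci moved it by 0.02 and by -0.17, so that changes of this size lie within the choice of scale.

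**Figure D1:**
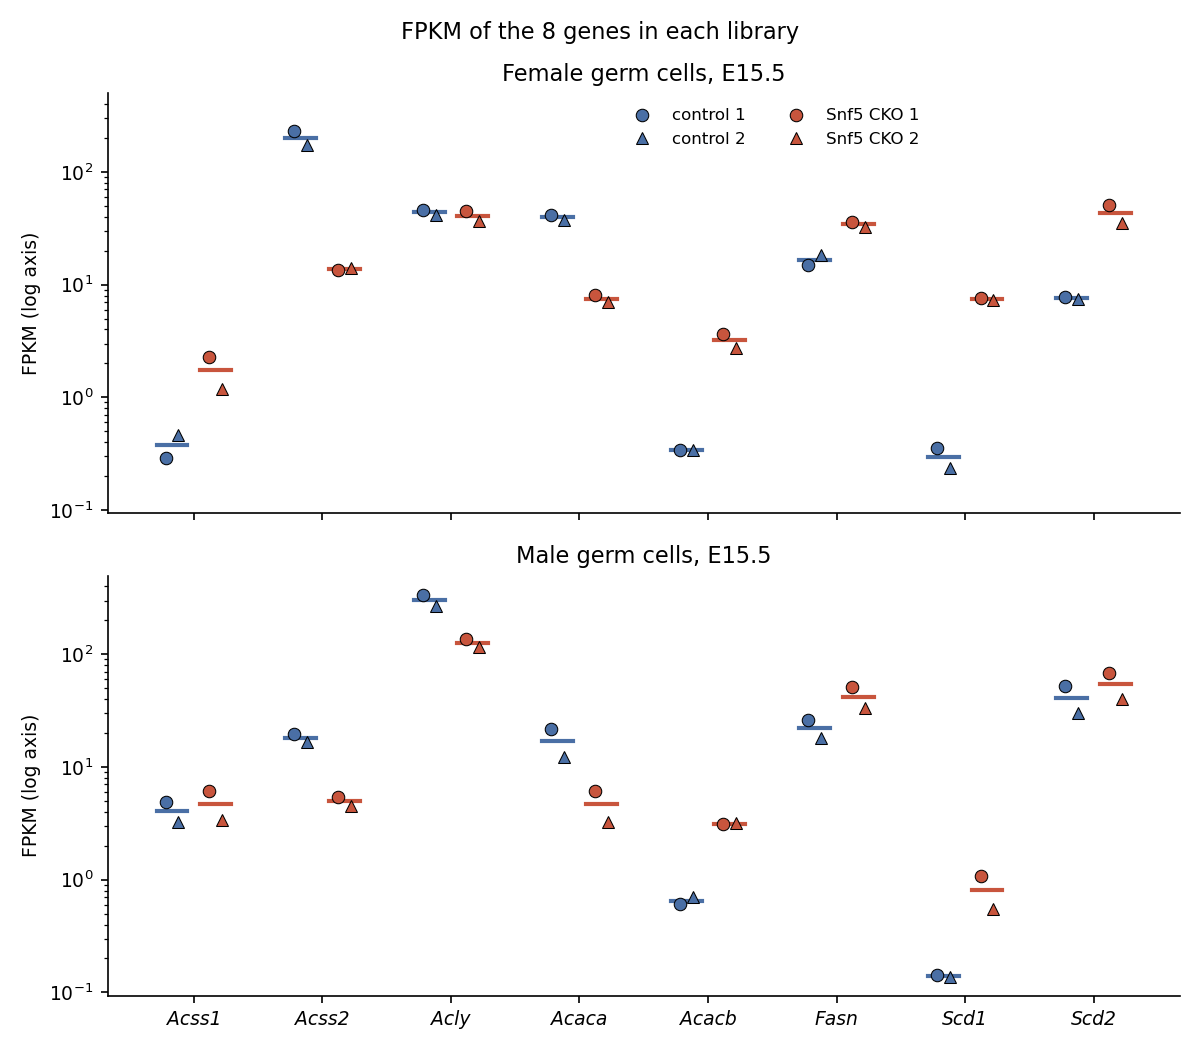
FPKM (log axis) of the 8 genes in each library, females above and males below, with control in blue, Snf5 CKO in red, circles for replicate 1, triangles for replicate 2 and a bar at the mean of each pair. Acss2 and Acaca lie lower and Acacb higher in Snf5 CKO in both panels, while the Acly points of the groups overlap in the female panel and are apart in the male panel, where the control mean was 302 FPKM.

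Acss2 showed the largest fall of the 8 genes in females and fell in both sexes. In female controls it was at 228 and 172 FPKM, above 94.5% of tested loci or more, and in female Snf5 CKO at 13.6 and 14.1 FPKM, near the middle of the tested loci at percentiles of 51.6 and 54.3. Both Snf5 CKO libraries lay far below both controls. The mean fell from 200.4 ± 39.6 to 13.9 ± 0.418 FPKM (SD, n = 2 libraries), 14.5-fold, and the log2 fold change was -3.75 (SE 0.19; limma adjusted p = 0.000106).

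In males the control level of Acss2 was 19.6 and 16.7 FPKM and the Snf5 CKO level 5.43 and 4.51 FPKM, again without overlap. This was a 3.65-fold lower mean, with a log2 fold change of -1.68 (SE 0.20; limma adjusted p = 0.0038). Cufflinks gives confidence bounds for each FPKM value. For Acss2 in females the lower bounds in the controls (42.8 and 30.7 FPKM) lay above the upper bounds in the Snf5 CKO (25.8 and 27.0 FPKM), whereas in males the bounds of the groups overlapped. Apart from Acss2, the bounds of all 4 libraries separated by genotype only for Scd1 in females. The Acss2 locus (chr2:155518043-155562743, mm10, plus strand) overlaps Ggt7 on the opposite strand, and holds Acss2os, an antisense gene, and because the kit did not mark strand, reads from the shared stretches cannot be assigned. The row of Acss2os was at 0.984 and 3.17 FPKM in female controls and at 0.174 and 0.0427 FPKM in female Snf5 CKO, and in males it was listed at 0 except for 0.140 FPKM in Snf5 CKO replicate 2. The row of Ggt7 itself was at 1.42 and 0.892 FPKM in female controls and at 0.0305 and 0.0312 FPKM in female Snf5 CKO, and in males at 5.50 and 5.77 against 0.101 and 0.531 FPKM.

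Acly fell in males and was not called in females. In female controls it was at 46.1 and 41.7 FPKM and in female Snf5 CKO at 45.3 and 36.6 FPKM. The groups overlapped, the log2 fold change was -0.10 (SE 0.18; limma adjusted p = 0.636), and its sign turned to 0.066 with median-of-ratios rescaling. In male controls Acly was at 336 and 268 FPKM, above 96.4% of tested loci or more, and in male Snf5 CKO at 137 and 115 FPKM.

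Both male Snf5 CKO libraries lay below both male controls, and Acly stayed the most abundant of the 8 genes there. The mean fell from 301.9 ± 48.5 to 125.9 ± 15.1 FPKM (SD, n = 2), and the log2 fold change was -1.25 (SE 0.22; limma adjusted p = 0.0106). The call was lost without male control replicate 1 (log2 fold change -1.09, limma adjusted p = 0.062) and without male Snf5 CKO replicate 2 (-1.13, limma adjusted p = 0.060). The locus lies at chr11:100476345-100528000 (mm10, minus strand) in the male table.

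The promoters of Acss2 and Acly are shown because they belong to the cytosolic sources of acetyl-CoA, both of which fell in males. The sequences are from RefSeq (GRCm38.p6), each upstream of the RefSeq start of the gene, which is also the edge of its locus in both tables, and are written 5′ to 3′ on the strand of the gene. Capitals mark GC boxes, the letters GGGCGG on either strand. The Acss2 stretch (chr2:155517793-155517947, plus strand) holds 3 of them and the Acly stretch (chr11:100528001-100528250, minus strand) 4. The Acss2 stretch stops before the start (155518043), at the first base covered by an annotated exon, and lies inside the Ggt7 gene on the opposite strand.
Acss2: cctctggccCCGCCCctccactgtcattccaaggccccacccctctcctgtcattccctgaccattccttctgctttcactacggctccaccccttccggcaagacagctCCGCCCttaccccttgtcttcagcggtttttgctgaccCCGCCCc
Acly: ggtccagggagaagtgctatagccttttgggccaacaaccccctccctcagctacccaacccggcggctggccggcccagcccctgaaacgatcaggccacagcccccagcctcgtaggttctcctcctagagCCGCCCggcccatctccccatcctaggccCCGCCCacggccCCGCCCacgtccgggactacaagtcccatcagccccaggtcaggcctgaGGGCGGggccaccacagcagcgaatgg

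Of the 8 genes, 6 matched the RefSeq promoter table by symbol, and no entry was matched for Scd1 and Scd2. Over the 250 bases before the start, GC boxes were found 4 times each in Acss2 and Acly and 2 times in Acss1, and were not found in Acaca, Acacb and Fasn, while 32.74% of the 32851 promoters in the table held at least 1. The CCAAT box, the letters CCAAT on either strand, was found in Acss2 and Acacb (1 each) and Fasn (3, of which 2 overlap), against 33.85% of all promoters. Neither the letters TCACNCCAC, a form of the sterol regulatory element bound by SREBP, nor the E-box CACGTG was found in any of the 6, against 1.053% and 6.021% of all promoters. The RefSeq start lies away from the edge of the locus for Acaca (15673 bases in the female and 15644 in the male table) and, in the male table only, for Acacb (18734 bases), and by shorter distances inside the locus for Acss1 and Fasn in both tables. These matches therefore describe the letters in the RefSeq windows only, which need not be the starts used in these cells.

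Acss1, the mitochondrial acetate-activating enzyme, was low in females and did not pass both limits of the test in either sex. Its level was 0.289 and 0.459 FPKM in female controls and 2.29 and 1.19 FPKM in female Snf5 CKO. The groups did not overlap, but the Snf5 CKO replicates differed from each other, and the log2 fold change of 0.97 (SE 0.25; limma adjusted p = 0.013) fell just short of 1. It passed 1 with a pseudocount of 0.1 (1.91), with median-of-ratios rescaling (1.04), without female control replicate 2 (1.06) and without female Snf5 CKO replicate 2 (1.26). In males Acss1 was at 4.89 and 3.26 FPKM in controls and at 6.06 and 3.39 FPKM in Snf5 CKO, and the groups overlapped (log2 fold change 0.15, SE 0.32, limma adjusted p = 0.721).

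The isoforms of acetyl-CoA carboxylase changed in opposite directions in both sexes. Acaca, which encodes the lipogenic isoform, was at 41.8 and 37.7 FPKM in female controls and at 8.03 and 6.96 FPKM in female Snf5 CKO. The replicates of each group lay close together and the groups were well apart. The mean fell 5.31-fold, from 39.8 ± 2.92 to 7.49 ± 0.759 FPKM (SD, n = 2), with a log2 fold change of -2.26 (SE 0.18; limma adjusted p = 0.000157).

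In males Acaca was at 21.8 and 12.3 FPKM in controls and at 6.16 and 3.23 FPKM in Snf5 CKO. The replicates of each group were further apart than in females, replicate 1 being the higher in both. The log2 fold change was -1.66 (SE 0.38; limma adjusted p = 0.0219), and within the pairs that share a replicate number the difference was close to this value, as the plot of fold changes shows. The call was lost without male control replicate 1 (-1.27, limma adjusted p = 0.064) and when no minimum was set on FPKM (limma adjusted p = 0.128). The female locus of Acaca is chr11:84179765-84401754 (mm10, plus strand).

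Acacb, which encodes the isoform at the mitochondrial surface, was at 0.343 and 0.340 FPKM in female controls and at 3.66 and 2.74 FPKM in female Snf5 CKO. In males it was at 0.604 and 0.699 FPKM in controls and at 3.11 and 3.17 FPKM in Snf5 CKO. In each sex both Snf5 CKO libraries lay above both controls, at low levels. The mean rose 9.37-fold in females (log2 fold change 1.64, SE 0.20, limma adjusted p = 0.00069) and 4.82-fold in males (1.33, SE 0.17, limma adjusted p = 0.0043). In both sexes Acacb passed the minimum mean only through the Snf5 CKO libraries, so its calls depend partly on that filter. The lower confidence bounds of both male Snf5 CKO libraries were 0. The fold changes on the log2(FPKM + 1) scale are smaller than the ratios of means because the added 1 weighs on low values. The female locus is chr5:114165518-114250758 (mm10, plus strand).

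**Figure D2:**
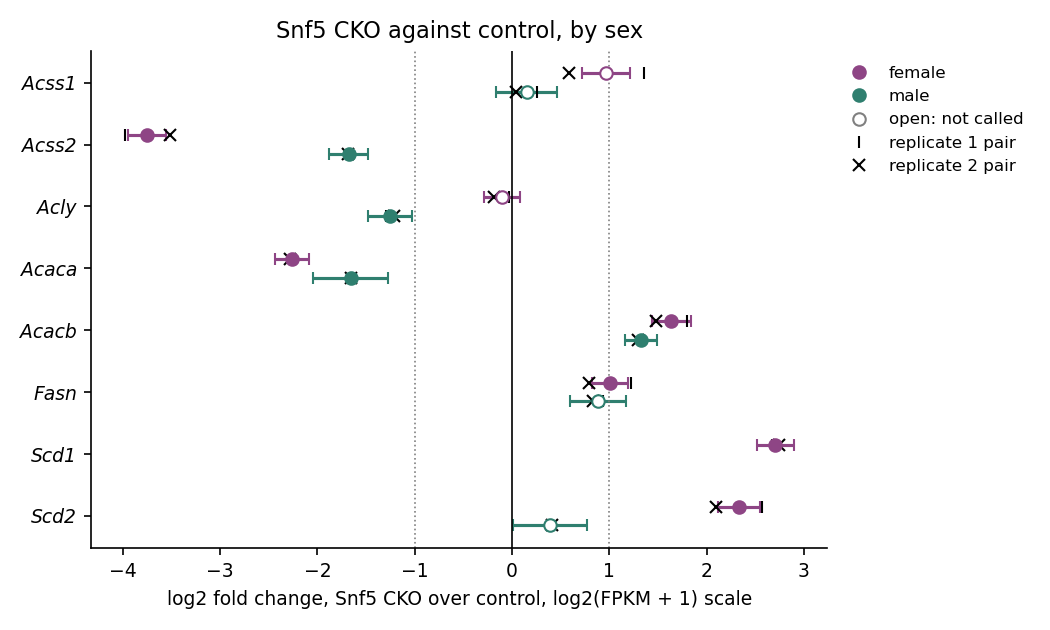
Log2 fold change of Snf5 CKO over control on the log2(FPKM + 1) scale, with the limma SE as bars, filled circles for called genes, open circles for genes not called, dotted lines at -1 and 1, and the difference within each replicate pair as ticks and crosses. Acss2 and Acaca lie left of -1 and Acacb right of 1 in both sexes, Fasn lies near 1 in both (1.01 in females and 0.89 in males), and Scd1 is shown for females only.

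Fasn, the synthase itself, rose in females by an amount close to the threshold and was not called in males. In female controls it was at 14.9 and 18.4 FPKM and in female Snf5 CKO at 36.1 and 32.4 FPKM. The groups did not overlap, and the mean rose 2.06-fold from 16.6 ± 2.48 to 34.2 ± 2.56 FPKM (SD, n = 2), with a log2 fold change of 1.01 (SE 0.18; limma adjusted p = 0.0033). The log2 fold change was 0.86 without female control replicate 1 and 0.93 without female Snf5 CKO replicate 1, which ended the call.

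In males Fasn was at 26.1 and 18.3 FPKM in controls and at 51.0 and 33.2 FPKM in Snf5 CKO. The groups did not overlap and the mean was 1.90-fold higher, but the log2 fold change of 0.89 (SE 0.29; limma adjusted p = 0.059) was not called. It was called with median-of-ratios rescaling (1.04, limma adjusted p = 0.038) and without male Snf5 CKO replicate 2 (1.19, limma adjusted p = 0.027). The female locus is chr11:120805517-120825119 (mm10, minus strand), on the same chromosome as Acly and Acaca.

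The stearoyl-CoA desaturases both rose in females. Scd1 was at 0.355 and 0.235 FPKM in female controls, in the lowest 1.8% of tested loci, and at 7.63 and 7.26 FPKM in female Snf5 CKO, at a percentile of 37.8 in both. Scd1 passed the minimum mean only through the Snf5 CKO libraries, so its low place among tested loci in controls follows partly from that filter. The rise in FPKM was the largest relative rise of the 8 genes, 25.2-fold in the means, with a log2 fold change of 2.71 (SE 0.19; limma adjusted p = 0.000122). In males Scd1 stayed low in all 4 libraries, at 0.144 and 0.138 FPKM in controls and 1.07 and 0.549 FPKM in Snf5 CKO. Both male Snf5 CKO values lay above both controls, but the gene was below the minimum mean, and a fit with no minimum gave a log2 fold change of 0.65 (SE 0.18; limma adjusted p = 0.123).

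Scd2, the desaturase that predominates in these libraries, was at 7.69 and 7.46 FPKM in female controls and at 50.5 and 35.2 FPKM in female Snf5 CKO. The groups were well apart, and the mean rose 5.66-fold from 7.58 ± 0.163 to 42.9 ± 10.8 FPKM (SD, n = 2; log2 fold change 2.33, SE 0.21, limma adjusted p = 0.00025). In males Scd2 was at 52.4 and 29.9 FPKM in controls and at 68.1 and 40.1 FPKM in Snf5 CKO. The male groups overlapped, with a log2 fold change of 0.39 (SE 0.38; limma adjusted p = 0.434), which turned to -0.0038 without male control replicate 2. Replicate 1 was the higher in both male groups, and within the pairs that share a replicate number the log2 differences were 0.37 and 0.41. Scd1 (chr19:44394450-44407709, mm10, minus strand) and Scd2 (chr19:44293676-44306865, plus strand) lie near each other and are similar in sequence, so that reads fitting both could be split between them. The Scd2 locus is merged with the microRNA gene Mir5114 in both tables.

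Because FPKM is scaled by transcript length, the levels of different genes can be set beside each other within a library, and the order of the 8 genes differed between control and Snf5 CKO. In female controls Acss2 was the highest, followed by Acly and Acaca, whose ranges overlapped, then Fasn and Scd2, and then Acss1, Acacb and Scd1, whose ranges overlapped. In female Snf5 CKO the highest were Scd2 and Acly, with overlapping ranges, then Fasn, Acss2, Acaca and Scd1 (the latter 2 overlapping), Acacb and Acss1. The range of Fasn there also overlapped with that of Scd2, though not with that of Acly. Acss2 thus went from the first to the fourth place.

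In male controls the order was Acly, Scd2, then Fasn, Acss2 and Acaca, each overlapping with the next, then Acss1, Acacb and Scd1. In male Snf5 CKO it was Acly, then Scd2 and Fasn with overlapping ranges, then Acss2, Acss1 and Acaca with overlapping ranges, then Acacb and Scd1. The tables were normalized separately by sex, so a level in females and a level in males can only be set side by side. With that limit, Acss2 was above Acly in both female control libraries, and Acly was above Acss2 in both male control libraries.

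The make-up of each paralog pair was computed per library as a share of summed FPKM, which does not depend on the scaling of the library. Acss2 made up 99.9% and 99.7% of Acss1 plus Acss2 in female controls and 85.5% and 92.2% in female Snf5 CKO, and 80.0% and 83.6% in male controls against 47.2% and 57.1% in male Snf5 CKO. Acaca made up 99.2% and 99.1% of Acaca plus Acacb in female controls and 68.7% and 71.7% in female Snf5 CKO, and 97.3% and 94.6% in male controls against 66.4% and 50.5% in male Snf5 CKO. Both shares were lower in every Snf5 CKO library than in either control of the same sex. Scd1 made up 4.41% and 3.05% of Scd1 plus Scd2 in female controls and 13.1% and 17.1% in female Snf5 CKO, and at most 1.55% in any male library, so that Scd2 held most of the desaturase FPKM throughout. No test was made of the shares, since the smallest two-sided p that an exact permutation of 4 libraries allows is 0.333.

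**Figure D3:**
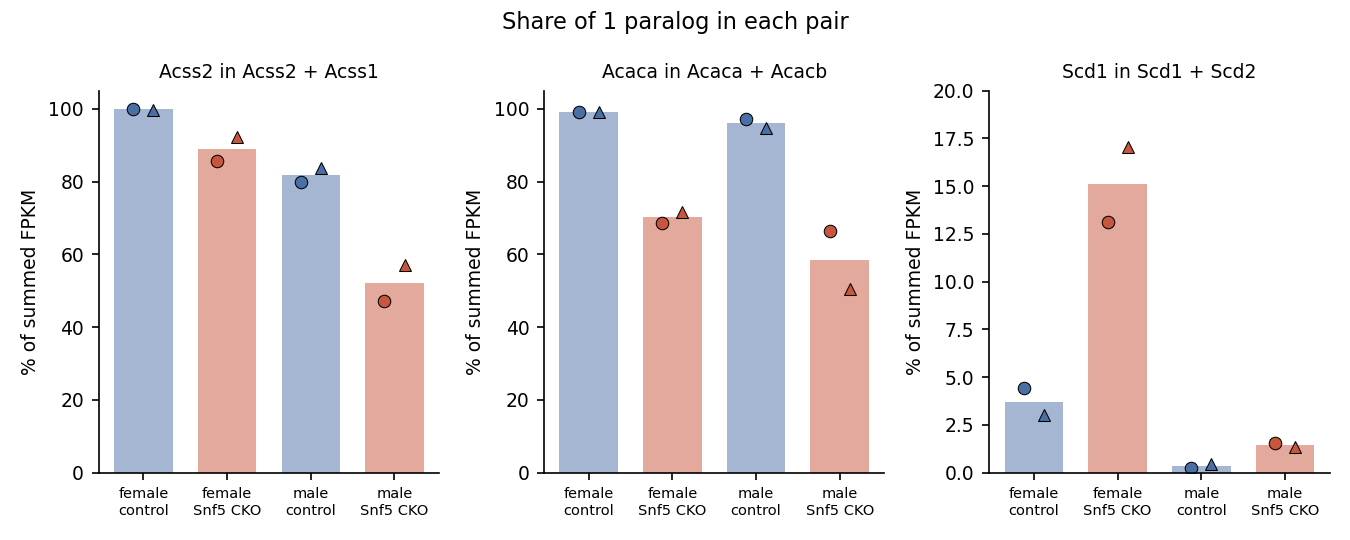
Share of 1 paralog in the summed FPKM of its pair (%), with bars at the mean of 2 libraries, circles for replicate 1 and triangles for replicate 2, control in blue and Snf5 CKO in red, and a separate axis range for Scd1. The Acss2 and Acaca bars are lower in Snf5 CKO than in control in both sexes, with individual male Snf5 CKO values down to 47.2% and 50.5%. The bars of the third panel show the share of Scd1 only, and the remaining share, that of Scd2, is not drawn.

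Genes that feed or continue this pathway were examined as 7 lists, whose counts are to be read against the shares of all tested loci, 17.2% higher and 21.8% lower in females and 14.3% higher and 17.5% lower in males. In the list of citrate, pyruvate and NADPH supply, 2 of 12 tested genes rose (16.7%) and 5 fell (41.7%) in females (median log2 fold change -0.88), and 2 of 12 rose (16.7%) and none fell in males (0.23). The shares that rose were near those of all tested loci. Slc25a1, the mitochondrial citrate carrier that supplies the substrate of ATP-citrate lyase, rose in both sexes, from 35.3 and 47.8 to 186 and 205 FPKM in females (log2 fold change 2.22) and from 38.9 and 53.1 to 204 and 250 FPKM in males (2.29). Cs, the citrate synthase, fell in females from 354 and 343 to 104 and 98.1 FPKM (-1.78). Its male levels were 80.3 and 70.5 FPKM in controls and 66.9 and 61.4 FPKM in Snf5 CKO, and it was not called there. In females Pdha1, a subunit of pyruvate dehydrogenase, rose (1.74) and Pgd, an NADPH-producing enzyme of the pentose phosphate pathway, fell (-1.55), and in males Me1, the cytosolic malic enzyme that also yields NADPH, rose from 19.8 and 13.6 to 57.5 and 45.0 FPKM (1.57).

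In the list of elongation and polyunsaturated desaturation, 4 of 11 tested genes rose (36.4%) and 2 fell (18.2%) in females (median 0.50), and none of 13 rose and 3 fell (23.1%) in males (median 0.25). The shares that fell were near those of all tested loci. Elovl6, which elongates palmitate, the product of fatty acid synthase, rose in females from 0.642 and 0.473 to 9.03 and 8.63 FPKM (log2 fold change 2.66). It passed the minimum mean there only through the Snf5 CKO libraries. Elovl5 (2.40) and Fads2 (2.25), which act on polyunsaturated chains, and Tecr (1.45), the reductase of the elongation cycle, also rose in females. Those that fell in males were Elovl4 (-1.67), Fads3 (-1.63) and Hacd3 (-1.13), of which Elovl4 and Fads3 were under 4 FPKM in all libraries.

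Among the acyl-CoA synthetases, which activate free fatty acids, 1 of 4 tested genes rose and 1 fell in females (median -0.69), and 1 of 3 rose and 1 fell in males (median 0.34). Acsl3, whose locus is merged with Utp14b, rose in both sexes (1.12 in females and 1.23 in males). Acsl6 fell in females (-1.74) and Acsl1 in males (-1.25).

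Of the regulators of lipogenesis, 4 of 12 tested genes rose (33.3%) and 3 fell (25.0%) in females (median 0.43), and 1 of 11 rose (9.09%) and none fell in males (median -0.08). The share that fell in females was near that of all tested loci. Srebf2, a transcription factor of sterol and lipid synthesis, rose in females from 12.7 and 16.7 to 45.3 and 36.4 FPKM (log2 fold change 1.42). Srebf1, its paralog known for driving fatty acid synthesis genes, rose in males from 11.2 and 9.93 to 31.6 and 23.6 FPKM (1.30). In females Srebf1 was also higher without overlap, at 10.9 and 8.79 against 16.9 and 16.0 FPKM, but was not called (0.69). Srebf2 in males was at 78.1 and 50.9 against 51.2 and 38.3 FPKM, overlapping and not called (-0.50). Prkaa1 (2.41), a catalytic subunit of AMPK, which phosphorylates acetyl-CoA carboxylase, Mid1ip1 (2.27), which promotes its polymerization, and Mlx (1.65), a partner of the carbohydrate-responsive factor ChREBP, rose in females.

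In glycerolipid assembly, in which acyl chains are joined to glycerol, 1 of 13 tested genes rose (7.69%) and 7 fell (53.8%) in females (median -1.03), and 1 of 14 rose (7.14%) and 3 fell (21.4%) in males (median -0.67). The share that fell in males was near that of all tested loci. Gpat2, an acyltransferase known for its high level in germ cells, fell in both sexes, from 494 and 489 to 99.6 and 99.2 FPKM in females (log2 fold change -2.30) and from 141 and 118 to 47.1 and 47.5 FPKM in males (-1.43). Work cited in the paper gives GPAT2 a further role in the formation of piRNAs, which act in gene silencing. Lpin3 (-2.28), a phosphatidate phosphatase, and Dgat1 (-2.18) and Dgat2 (-1.59), which make triacylglycerol, also fell in females. In males Agpat3 rose (1.55), and Lpin2 (-1.24) and Gpat3 (-1.07, listed as Agpat9) fell.

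Of the genes of fatty acid oxidation, 2 of 12 tested rose (16.7%) and none fell in females (median 0.25), and 1 of 12 rose (8.33%) and 2 fell (16.7%) in males (median -0.35), of which the female share that rose and the male share that fell were near those of all tested loci. Acadm, the medium-chain acyl-CoA dehydrogenase, rose in females from 5.20 and 5.06 to 48.8 and 43.0 FPKM (log2 fold change 2.93), as did Cpt1c (1.77). In males Hadh rose (2.21), and Hadhb (-1.74), a subunit of the trifunctional protein, and Slc25a20 (-1.02), the carnitine-acylcarnitine carrier, fell. In mitochondrial fatty acid synthesis, a separate route in which the enzymes are single proteins, none of 5 tested genes was called in females (median -0.22), and Cbr4 rose in males from 13.0 and 13.0 to 33.7 and 33.6 FPKM (1.31).

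**Figure D4:**
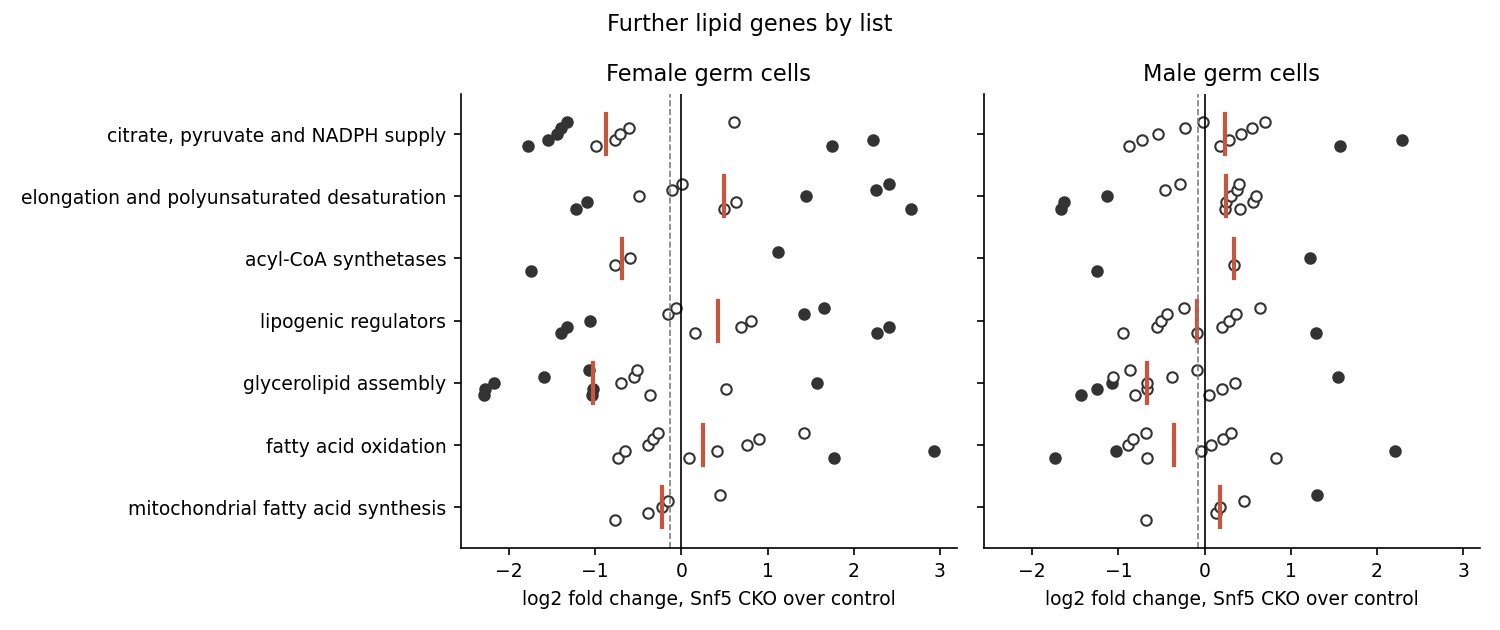
Log2 fold change of Snf5 CKO over control, log2(FPKM + 1) scale, for each tested gene of the 7 lists in females (left) and males (right), with filled circles for called genes, a red bar at the median of the list and a dashed line at the median of all tested loci (-0.14 in females and -0.07 in males). The medians run from -1.03 to 0.50 in females and from -0.67 to 0.34 in males, lowest for glycerolipid assembly in both.

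For each of the 6 members called in at least 1 sex and tested in both, the genes with the most similar pattern were sought among the 11088 genes tested in both tables, by the root-mean-square distance of log2(FPKM + 1), centred within each table, over all 8 libraries. Among the closest to Acss2 were Nrip3 (distance 0.130) and Tex16 (0.155), and the closest to Acly were Me2 (0.0463), the mitochondrial malic enzyme, Ap1ar (0.0596) and Kctd18 (0.0663). The closest to Acaca were Tanc2 (0.110), Lrig2 (0.125) and Rapgef6 (0.140), and those to Acacb were Gtse1 (0.0740), Eng (0.0908) and Gbas (0.102). For Fasn they were Unc45a (0.110), Sde2 (0.114) and Tuba1a (0.124), and for Scd2 Gtf2i (0.140), Mov10 (0.156) and Rest (0.171). No member was among the 3 closest genes of another.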

How the data were processed

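RNA of sorted germ cells was amplified with the SMART-Seq v4 kit and sequenced as paired ends. The authors used Tophat for mapping to mm10 and Cufflinks for quantification, in 1 run per sex. The deposited tables give FPKM, confidence bounds and a status per locus and library. The annotation version and the library-size normalization are not given in the sources used here. No counts are given, so the depth is unknown. Groups came from the labels.

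Named loci whose 4 libraries averaged 1 FPKM or more were fitted by sex on log2(FPKM + 1) in limma (version 3.58.1, R 4.3.3, with trend), which was tested on simulated data. The simulated libraries had independent noise, so that test did not cover the pairing of replicates described below. Loci with no name, which held between 5.46% and 42.1% of a library's FPKM, were left out. Starts had 1 added. The members, lists and tests were chosen with earlier results of these data known. All members are named, with up to 4 called genes of largest change per list and sex and the 3 most similar genes, of which 1 is not reported here. Older symbols were matched through RefSeq (GRCm38.p6). The methods describe the replicates as biological duplicates from separately sorted cells. Raw-file names put all replicate 1 libraries in 1 sequencing run, and the deviations of same-numbered libraries correlated at 0.504 in females and 0.595 in males. The numbers were therefore taken as pairs in the differences within replicate pairs and in an alternative fit with a replicate block. The fit as reported held no term for replicate number, so its SE and p-values leave this pairing out. Alternatives were another pseudocount, filters, scalings, a replicate block and leaving out each library.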

Additional observations from a re-analysis of the deposited data

Results flagged for a closer look

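None of the 8 members moved in opposite directions in every library of females and males. Among the genes of the other lists that were named for the size of their change, 8 did so, which means that both Snf5 CKO libraries of one sex lay above both controls and both of the other sex lay below. Groups without overlap were common, at 81.5% of all tested loci in females and 74.4% in males. The share of all loci with opposite directions was not computed, so the count of 8 cannot be set against it. The difference between the sexes was not tested, since the tables were normalized separately. On the log2 scale, Pgd changed by -1.55 in females and 0.29 in males, Elovl5 by 2.40 and -0.46, Mlx by 1.65 and -0.24, Mid1ip1 by 2.27 and -0.95, and Acadm by 2.93 and -0.83. Me1 changed by -0.99 in females and 1.57 in males, Gpat3 by 1.57 and -1.07, and Cbr4 by -0.39 and 1.31.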

How the results depend on the processing

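Of 190 alternative values for single members, 173 kept their direction and their side of the threshold, 6 gained a call, 6 lost one and 5 changed sign. The sign changes were those of Acly in females (0.066 with median-of-ratios rescaling and from -0.26 to 0.045 with 1 library left out, positive without female Snf5 CKO replicate 2), Acss1 in males (from -0.19 to 0.49 with 1 library left out, negative without male control replicate 2 and without male Snf5 CKO replicate 1) and Scd2 in males (from -0.0038 to 0.78 with 1 library left out, negative without male control replicate 2), none of them called in the fit as reported. With a minimum mean of 5 FPKM, 2 members were called higher in females and 0 in males, since 5 members remained in each sex, and the males had 1 at the usual minimum. With median-of-ratios rescaling, 2 were called higher in males. Leaving out 1 library left 2 to 2 members lower and 3 to 5 higher in females, and 1 to 3 lower (1 without male control replicate 1) and 1 to 2 higher (2 without male Snf5 CKO replicate 2) in males. With the replicate number as a block, 2 were lower and 4 higher in females and 3 lower and 1 higher in males, and no member's call changed. Fasn in males had an adjusted p of 0.00027 and Scd2 an adjusted p of 0.0026 under the limma block, at log2 fold changes of 0.89 and 0.39. Depth is unknown, and levels under 1 FPKM rest on few fragments.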
